A study of Macaca fascicularis with 2 samples.

Results

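*IL2*, *IL4*, *IL10*, *IL17A*, *IL26*, *IFNG*, *TNF*, *LTA*, *TGFB1* and *CSF1* encode effector and regulatory cytokines, and their transcripts were counted in unstimulated T cells of the blood that carry both CD4 and CD8 (double positive, DP). The 10 genes were taken by symbol from the 29324 genes of the table, and all 10 were found there. The cells came from the peripheral blood of 1 untreated cynomolgus monkey (*Macaca fascicularis*), aged 10 years, by magnetic selection for CD4 and then for CD8. Antibody tags for CD4 and CD8α were added, and the cells were read as 2 libraries, 1 for genes and 1 for tags, that share all 8953 barcodes. With 1 animal and 1 preparation there are no replicates, no test was possible, and every 95% interval below covers counting error only.

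Effector T cells keep most cytokine genes silent until their receptor is engaged. Transcription then starts within hours, and many cytokine mRNAs are removed quickly by proteins that bind AU-rich elements, so resting blood cells usually hold few of these molecules. IFN-γ, TNF and lymphotoxin α belong to type 1 and cytotoxic responses, IL-4 to Th2 cells, and IL-17A with IL-26 to Th17 cells. IL-2 drives T cell growth. IL-10 and TGF-β1 restrain responses, and TGF-β1 is made as a latent protein that needs activation outside the cell. CSF1 is the growth factor of monocytes and macrophages.

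After filtering, 8830 cells with 31677119 gene UMIs were kept (a UMI, or unique molecular identifier, stands for 1 captured RNA molecule), with a median of 3145 UMIs and 1127 genes per cell. They fell into 20 clusters, which were named from marker genes with the 10 cytokine genes left out of the clustering. The classes were naive-like (5209 cells), CD4 CTL-like (872, cytotoxic CD4 cells), Treg-like (593), CD8 CTL-like (426), Th17-like (351), Eomes+ Tr1-like (265, type 1 regulatory), Tfh-like (227), Th2-like (214), innate-like (53) and cycling (47), with 392 cells left unnamed. The preparation also held 162 B-like and 19 monocyte-like cells, so that 8649 cells were taken as T cells, of which 97.8% had a *CD3E* UMI. The Th2-like name is weak in that *CCR6* of the Th17 list, but no Th2 marker, was among the 10 leading genes of its cluster. The mean log2 ratio of its markers to the median over clusters was 1.91. It was lower for the Tfh-like (1.67) and the naive-like clusters (1.08 to 1.32). The hemoglobin gene *HBB* was among the leading genes of the largest naive-like cluster. Levels are given as CPM (UMIs per 1000000 gene UMIs of a group of cells). Because free RNA can enter any droplet, shares of cells are set beside 115 B-like control cells, those with at most 1 UMI over the T cell receptor genes *CD3D*, *CD3E*, *CD3G* and *TRAC*. To compare classes of unequal depth, shares are also given after thinning each cell to 2200 UMIs.

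The 10 transcripts covered a wide range of abundance. *TGFB1* had 4880 UMIs in 3271 cells, or 37.0% of all cells (36.0 to 38.1%). *CSF1* followed with 761 UMIs in 487 cells (5.52%), *LTA* with 301 in 288 (3.26%) and *IFNG* with 264 in 217 (2.46%). *TNF* had 130 UMIs in 78 cells (0.883%) and *IL10* had 81 in 62 (0.702%). The type 17 cytokines were rare, with 30 UMIs in 16 cells for *IL26* (0.181%) and 30 UMIs in 11 cells for *IL17A* (0.125%). *IL4* had 6 UMIs in 6 cells and *IL2* had 2 UMIs in 2 cells. These are levels per UMI of a 5′ library and not per transcript length, and the 123 barcodes removed by the filter held 0 *IL2*, *IL4*, *IL10*, *IL17A* and *IL26* UMIs.

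How the UMIs were spread over cells differed between the genes. *LTA* came as single molecules, with 275 of its 288 cells at 1 UMI and no cell above 2. *IFNG* was at 1 UMI in 179 of 217 cells, with a maximum of 4. *IL17A* was the most concentrated, since 7 of its 11 cells held 2 UMIs or more, these carried 86.7% of its UMIs, and 1 cell held 8. *IL26* reached 7 UMIs in a cell, *CSF1* 10 and *TNF* 12. Cells with a UMI were deeper than the rest for each of the 10 genes, from a median of 3521 against 2982 UMIs for *TGFB1* to 6971.5 against 3144 UMIs for *IL26*, so shares are set beside CPM and thinned shares below.

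**Figure D1:**
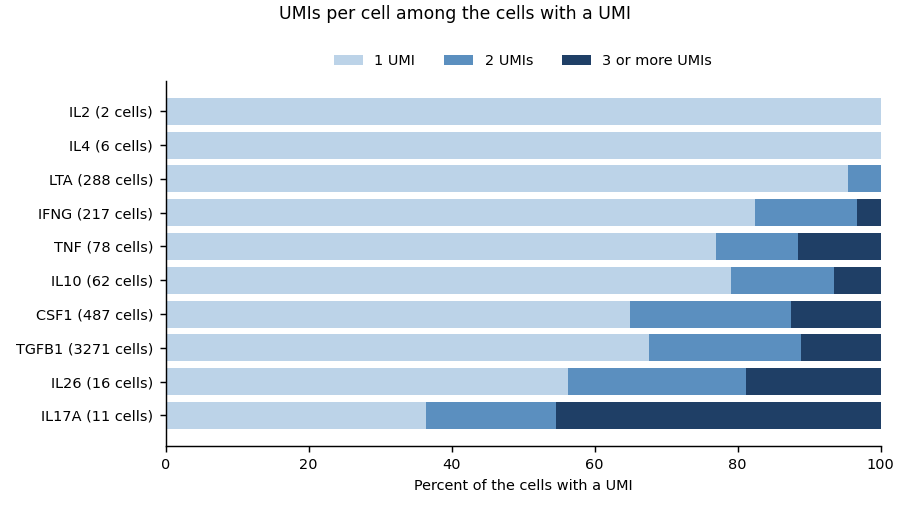
Percent of the cells with a UMI of each gene (x axis) that held 1, 2 or at least 3 UMIs, for the 10 cytokine genes (y axis, with the number of cells). Nearly all *LTA* cells (275 of 288) held 1 UMI, while 7 of the 11 *IL17A* cells held 2 or more.

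*IL2* was not detectable above the limit of this depth. Its 2 UMIs lay in 1 Th2-like cell and 1 CD8 CTL-like cell, and none of the 227 Tfh-like cells had one. Both cells with an *IL2* UMI also had an *IFNG* UMI, and both carried a *KLRB1* UMI, which encodes the lectin receptor CD161. Over all cells the level was 0.0631 CPM (0.00765 to 0.228 CPM), and after thinning no cell remained. *IL21*, the neighbour of *IL2* in the genome and a cytokine of follicular helper cells, had 20 UMIs in 19 cells and its highest level of 5.26 CPM in Tfh-like cells.

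*IL4* was at the same limit. Its 6 UMIs lay in 1 cell each of the Th2-like, CD4 CTL-like, Th17-like, Eomes+ Tr1-like, Tfh-like and Treg-like classes. The Th2-like level of 1.01 CPM rested on 1 UMI, so that its ratio to all other T cells, 6.0 (0.127 to 53.6), shows no direction. Naive-like cells had 0 *IL4* UMIs. The level of the other T cells, from 6 UMIs, was 2.17-fold a floor of 3 UMIs, and the interval of the ratio began at 1.28-fold. *GATA3*, the regulator of Th2 cells, had a UMI in 5 of the 6 *IL4* cells (4 after thinning), against 29.2% of T cells without *IL4*, *CCR4* in 1 and *PTGDR2*, a receptor that marks Th2 cells, in 0. *NKG7*, a gene of cytotoxic cells, was in 4 of them, so these markers do not set the 6 cells out as Th2 cells. *IL5* had 3 UMIs in all and *IL13*, the neighbour of *IL4* in the genome, had 0, so none of these type 2 cytokines had a level above its floor in a class.

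*IL17A* UMIs were found in Th17-like cells and in no other class. All 30 lay in 11 of the 351 Th17-like cells, at 15.7 CPM (10.6 to 22.4 CPM). The other T cells had 0 UMIs. Against a floor of 3 UMIs over that group the Th17-like level was 150.1-fold higher (log2 7.23), and the interval of the ratio began at 114.7-fold. With 10 principal components in the clustering the log2 ratio was 6.29, and at resolution 1.2 it was 6.56. Its unthinned share of 3.13% in Th17-like cells (1.44% after thinning, 0.468 to 3.32%) stood against 0 of 115 B-like control cells, at median depths of 5036 and 4549 UMIs. These allow up to 2.61% of cells by 3 counts and 3.16% by the exact interval, too many to set the Th17-like share apart, while 0 of the 5209 naive-like cells allow up to 0.0576%. *IL17A* itself was not among the markers that named this class.

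*IL26*, which lies between *IFNG* and *IL22* in the genome, also had most of its UMIs in Th17-like cells but was not confined to them. Th17-like cells held 25 of its 30 UMIs in 13 cells, or 13.1 CPM (8.48 to 19.3 CPM), which was 75.1-fold (28.2 to 251-fold, log2 6.23) above all other T cells. Over the other clusterings this log2 ratio went down to 4.97, which is within the interval. A further 4 UMIs lay in 2 of the 47 cycling cells, or 10.2 CPM (2.77 to 26.0 CPM), an interval that overlaps the Th17-like one. The remaining UMI lay in a CD4 CTL-like cell of only 1297 UMIs. B-like control cells had 0 *IL26* UMIs, as had the naive-like, Treg-like and Tfh-like cells.

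The marker status of these cells was read cell by cell. *CCR6*, the receptor for CCL20 and a marker of Th17 cells, had a UMI in 9 of the 11 *IL17A* cells and in 10 of the 16 *IL26* cells. It is also one of the markers that named the class, and of the Th17-like cells without *IL17A* 42.9% had it. After thinning the shares were 18.2% (2.28 to 51.8%) with *IL17A* and 19.3% without. *GATA3* was in 9 of the 11 and 15 of the 16 cells. The Th17-like cells among them had it in 9 of 11 and 12 of 13, against 54.4% of Th17-like cells without *IL17A* and 53.8% of those without *IL26*. These *GATA3* shares are without thinning. For each cytokine the median depth was 6968 UMIs with it and 4964 UMIs without, so no difference is read from these shares. *KLRB1* was present in 8 and 9 cells and *IL23R*, the receptor of the cytokine that maintains Th17 cells, in 3 and 2. *CD8A* had a UMI in 9 of the 11 and 15 of the 16 cells, and *CD4* in 6 and 10. The cells with *IL17A* had 3719 to 10662 gene UMIs and those with *IL26* 1297 to 22369.

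The overlap of both genes was partial. There were 4 cells with *IL17A* and *IL26*, all Th17-like, which is 36.4% of the *IL17A* cells and 25.0% of the *IL26* cells. Within Th17-like cells, 36.4% (10.9 to 69.2%) of the cells with *IL17A* had *IL26*, against 2.65% (1.22 to 4.97%) of those without, at median depths of 6968 and 4964 UMIs. The cell with most *IL17A* held 8 UMIs and 1 *IL26* UMI, and the cell with most *IL26* held 7 and 0 *IL17A* UMIs. *IL22*, which acts on epithelia and was looked at after its values were seen, had 30 UMIs in 9 cells, 27 of them in Th17-like cells, and *IL26* was present in 4 of these 9 cells and *IL17A* in 2. *IL17F*, the neighbour of *IL17A*, had 4 UMIs and *CCL20* had 8, of which 3 and 7 lay in Th17-like cells.

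*IFNG* was a transcript of the cytotoxic classes. CD4 CTL-like cells had 130 UMIs in 110 of 872 cells, or 40.6 CPM (33.9 to 48.2 CPM). CD8 CTL-like cells had 65 UMIs in 58 of 426 cells, or 30.5 CPM (23.5 to 38.8 CPM), and innate-like cells 10 UMIs in 8 of 53 cells, or 39.3 CPM (18.8 to 72.2 CPM). The order of these classes is not resolved, since the ratio of CD4 to CD8 CTL-like cells was 1.33 (0.983 to 1.83) and that of innate-like to CD4 CTL-like cells 0.967 (0.453 to 1.84). The highest level, 58.4 CPM (37.0 to 87.6 CPM), was in the 47 cycling cells, with 23 UMIs in 13 cells. Its interval overlaps those of the CD4 CTL-like, CD8 CTL-like and innate-like cells. The cytotoxic genes *GZMB*, *GZMA* and *NKG7* were among the leading genes of the cycling cluster.

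The helper and regulatory classes were lower. Eomes+ Tr1-like cells had 10 UMIs (9.68 CPM), and the CD4 CTL-like level was 4.20-fold (2.21 to 8.96-fold) higher. Th17-like cells had 9 UMIs and Th2-like cells 4. Treg-like cells had 0 UMIs in 593 cells, which allows 1.37 CPM, and the 5209 naive-like cells had 1. The 3 cytotoxic classes together stood 18.3-fold (13.4 to 25.5-fold) above all other T cells (log2 4.19, and 4.80 as a mean over cells). T cells other than naive-like stood 275-fold above naive-like cells, with an interval of 48.9 to 10912-fold that rests on that 1 UMI.

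Thinned to equal depth, 8.29% (6.51 to 10.4%) of CD4 CTL-like cells and 6.94% (4.70 to 9.81%) of CD8 CTL-like cells had an *IFNG* UMI, against 12.6% and 13.6% without thinning. In naive-like cells the thinned share was 0.0213%. Of the B-like control cells, 1 of 115 (0.870%) had *IFNG*, with 2 UMIs, at a median depth of 4549 UMIs against 3503 for CD4 CTL-like cells. The other 47 B-like cells, which held T cell receptor RNA and had a median of 9070 UMIs, had 7 *IFNG* UMIs in 6 cells.

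**Figure D2:**
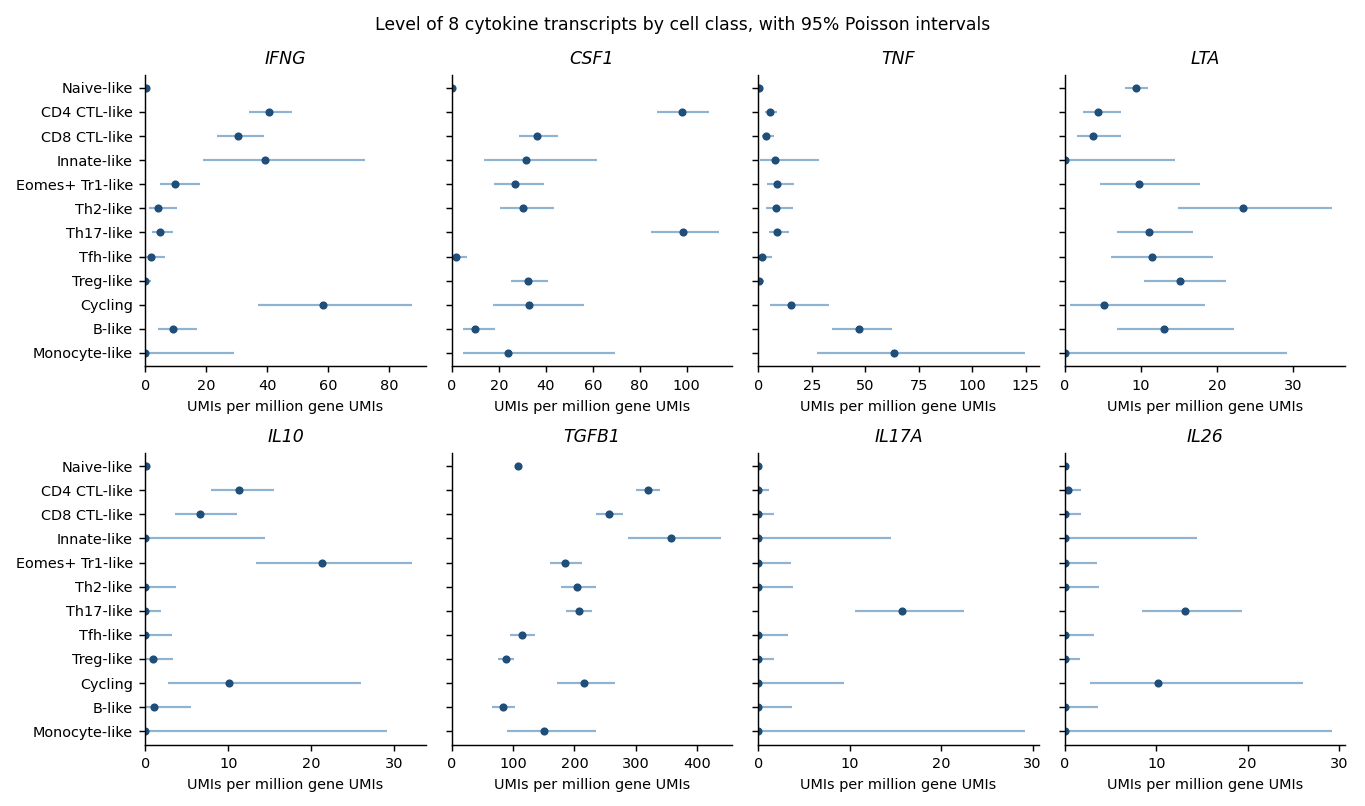
Level of 8 cytokine transcripts (x axis, UMIs per 1000000 gene UMIs, linear, each panel with its own scale) by cell class (y axis); points are sums over the cells of a class and bars 95% Poisson intervals. *IFNG* was near 40.6 CPM in CD4 CTL-like cells and near 0 in naive-like cells, and *CSF1* was near 98 CPM in both CD4 CTL-like and Th17-like cells. *IL17A* was found in Th17-like cells alone, while *IL26* was at 13.1 CPM in Th17-like and 10.2 CPM in cycling cells.

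*IL10* lay mainly in the Eomes+ Tr1-like and cytotoxic cells, with few UMIs in Treg-like cells. Of its 81 UMIs, 36 were in 29 CD4 CTL-like cells (11.2 CPM, 7.88 to 15.6 CPM), 22 in 14 Eomes+ Tr1-like cells (21.3 CPM, 13.3 to 32.2 CPM) and 14 in 11 CD8 CTL-like cells (6.56 CPM). The Eomes+ Tr1-like level was 10.8-fold (6.31 to 18.0-fold) above all other T cells and 1.89-fold (1.06 to 3.30-fold) above CD4 CTL-like cells, while CD4 and CD8 CTL-like cells were not separated (ratio 1.72, 0.903 to 3.44). Although per CPM the Tr1-like class was highest, CD4 CTL-like cells held the largest part of the UMIs, 44.4% against 27.2%. Treg-like cells had 2 UMIs in 593 cells (0.914 CPM, 0.111 to 3.30 CPM). The 47 cycling cells had 4 UMIs in 3 cells (10.2 CPM, 2.77 to 26.0 CPM), and Th2-like, Th17-like, Tfh-like and innate-like cells had 0.

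*IL10* was present in 5.28% of Eomes+ Tr1-like cells, and in 3.23% (1.40 to 6.26%) after thinning, at a median depth of 3399 UMIs. None of the 115 B-like control cells had one, which allows up to 2.61% by 3 counts and 3.16% by the exact interval, and naive-like cells had 2 UMIs in 5209 cells. *IL10RA*, the receptor chain specific to IL-10, was broadly present, with 226 CPM in CD4 CTL-like and 101 CPM in naive-like cells. *IL10RB*, which the IL-10, IL-22 and IL-26 receptors share, had 211 CPM in CD4 CTL-like and 48.0 CPM in naive-like cells.

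*TNF* was the one gene whose highest levels lay outside the T cells. The 162 B-like cells held 47 of its 130 UMIs in 15 cells, or 46.9 CPM (34.4 to 62.3 CPM), and the 19 monocyte-like cells 8 UMIs in 5 cells, or 63.3 CPM (27.3 to 125 CPM). The B-like level was 8.33-fold (4.75 to 15.2-fold) that of CD4 CTL-like cells. The 115 B-like control cells alone had 49.4 CPM, from 28 UMIs in 9 cells, of which 1 cell held 12. B cells and monocytes make TNF themselves and are no measure of background for this gene.

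Within T cells, *TNF* had 75 UMIs in 58 cells and was spread over several classes. The 47 cycling cells had 15.2 CPM (5.59 to 33.2 CPM), with 6 UMIs in 5 cells. Th17-like cells had 8.91 CPM, Eomes+ Tr1-like 8.71 CPM, Th2-like 8.12 CPM, CD4 CTL-like 5.63 CPM and CD8 CTL-like 3.75 CPM, with intervals that overlap, and the ratio of Th17-like to CD4 CTL-like cells was 1.58 (0.767 to 3.26). Naive-like cells had 2 UMIs and Treg-like cells 1. The cytotoxic classes stood 2.66-fold (1.60 to 4.34-fold) above all other T cells, a group that is mostly naive-like. The T cells that were neither cytotoxic nor naive-like had 4.96 CPM (3.62 to 6.64 CPM), against 5.01 CPM (3.33 to 7.24 CPM) in the cytotoxic classes. T cells other than naive-like 39.5-fold (10.6 to 333-fold) above naive-like cells.

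*LTA*, next to *TNF* in the genome, had a different distribution. Naive-like cells held 148 of its 301 UMIs, or 9.32 CPM (7.88 to 10.9 CPM), and the other T cells 140, or 9.55 CPM, a ratio of 1.02 (0.808 to 1.30). The highest level was in Th2-like cells, 23.3 CPM (14.8 to 35.0 CPM), which was 2.51-fold (1.54 to 3.9-fold) above naive-like cells. No cluster took the Th2-like name with 10 principal components, at resolution 1.2 or with the members kept for clustering, so this value holds for the class as named here. Treg-like cells had 15.1 CPM, at 1.62-fold (1.07 to 2.37-fold). The cytotoxic cells were lower, with 4.38 CPM in CD4 CTL-like and 3.75 CPM in CD8 CTL-like cells, at 0.470-fold (0.251 to 0.813-fold) and 0.402-fold (0.171 to 0.814-fold) of the naive-like level. Th17-like, Tfh-like and Eomes+ Tr1-like cells did not stand apart from naive-like cells, with ratios of 1.18 (0.710 to 1.87), 1.22 (0.636 to 2.16) and 1.04 (0.488 to 1.96). B-like control cells had 15.9 CPM, which is of the same size, and B cells are known to make lymphotoxin. No cell held both *TNF* and *LTA*, of 78 and 288 cells. With 0.883% and 3.26% of all cells, these are too few to read a separation from. *LTB*, whose product forms the membrane heterotrimer with lymphotoxin α, was far more abundant, with 1552 CPM in naive-like and 149 CPM in CD4 CTL-like cells.

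*CSF1* had 2 classes at its top. CD4 CTL-like cells had 314 UMIs in 214 cells, or 98.1 CPM (87.6 to 109.6 CPM), and Th17-like cells 188 UMIs in 96 cells, or 98.5 CPM (84.9 to 114 CPM), a ratio of 0.996 (0.829 to 1.2). The Th17-like class had 418 to 682 cells in the other clusterings, so this ratio holds for the class as named here. CD8 CTL-like cells had 36.1 CPM (28.5 to 45.1 CPM), and CD4 CTL-like cells stood 2.72-fold (2.11 to 3.54-fold) above them. The cycling, Treg-like, innate-like, Th2-like and Eomes+ Tr1-like classes lay between 33.0 and 27.1 CPM with overlapping intervals. Tfh-like cells had 2 UMIs and naive-like cells 4 (0.252 CPM), and the T cells other than naive-like stood 201.5-fold (78.4 to 742-fold) above naive-like cells. The cytotoxic classes were 5.11-fold (4.41 to 5.91-fold) above all other T cells, which include the Th17-like cells and are mostly naive-like. The T cells that were neither cytotoxic nor naive-like had 38.0 CPM (34.1 to 42.3 CPM), against 71.4 CPM (64.6 to 78.8 CPM) in the cytotoxic classes.

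After thinning, a *CSF1* UMI was present in 17.5% (15.0 to 20.3%) of CD4 CTL-like and 17.0% (13.2 to 21.3%) of Th17-like cells, against 24.5% and 27.4% without thinning. B-like control cells had 3 UMIs in 1 of 115 cells (0.870%). *CSF1* cells were more often among the 6% of cells with the highest doublet scores, 11.1% against 5.70% of the other T cells. Within CD4 CTL-like cells this was 4.67% against 1.98%, and the ratios without all cells of high score stayed within the intervals given. *CSF1R*, the receptor of CSF1, had 44 UMIs, 25 in monocyte-like cells and the other 19 in B-like cells, and 0 in naive-like, CD4 CTL-like and Th17-like cells.

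*TGFB1* was found in every class. The order ran from innate-like cells at 357 CPM (288 to 439 CPM) through CD4 CTL-like at 319 CPM (300.1 to 340 CPM), CD8 CTL-like at 257 CPM (236 to 279 CPM), cycling at 216 CPM, Th17-like at 207 CPM, Th2-like at 205 CPM and Eomes+ Tr1-like at 185 CPM, to Tfh-like at 114 CPM, naive-like at 108 CPM (103 to 113 CPM) and Treg-like at 87.7 CPM (75.7 to 101 CPM). Innate-like and CD4 CTL-like cells were not separated (ratio 1.12, 0.893 to 1.39), while CD4 CTL-like cells were 1.24-fold (1.12 to 1.38-fold) above CD8 CTL-like cells. Treg-like cells, the class best known for TGF-β, had 0.542-fold (0.467 to 0.627-fold) the level of all other T cells and 0.813-fold (0.697 to 0.944-fold) that of naive-like cells. T cells other than naive-like were 1.94-fold (1.83 to 2.06-fold) above naive-like cells.

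Of the B-like control cells, 18.3% had a *TGFB1* UMI (42.4 CPM), and 12.4% after thinning. The thinned share was 50.5% (47.0 to 53.9%) in CD4 CTL-like cells, 20.1% in naive-like cells and 17.5% (14.5 to 20.9%) in Treg-like cells, against 66.4%, 27.0% and 26.5% without thinning. B cells also make TGF-β1, so their share is no pure background. Of 8 genes that hold or activate latent TGF-β, *LRRC32* (GARP, which docks it on Treg cells) had 4 UMIs and *ITGB8* 2. *LTBP3* had 26.1 CPM and *NRROS* 56.9 CPM over all cells, and *FURIN*, the protease that cuts the precursor, had 42.4 CPM in Th17-like cells against 6.80 CPM in naive-like cells.

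**Figure D3:**
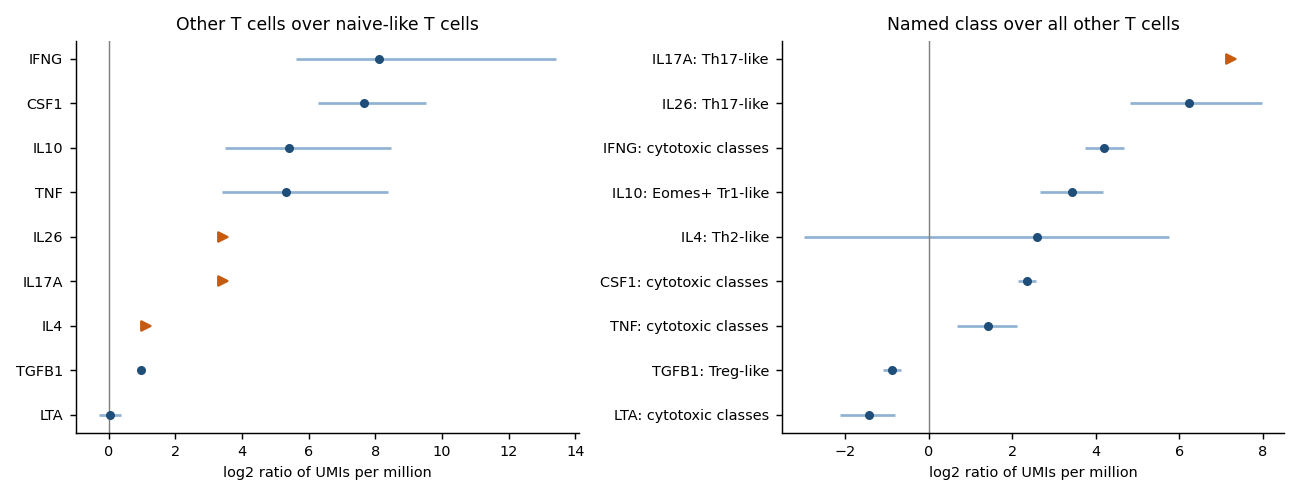
Ratios of the cytokine levels on a log2 scale (x axis) for T cells other than naive-like over naive-like cells (left) and for the class tied to each gene over all other T cells (right). Points are estimates with 95% intervals. Triangles are ratios to a floor of 3 UMIs, drawn without an interval. *IFNG* and *CSF1* lay at 8.10 and 7.66 on the left, and *LTA* lay at 0.04 on the left and below 0 on the right.

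Across all genes, a ratio of at least 2-fold was counted as a call, with no test. The 11854 genes tested had 10 or more UMIs in all T cells, and 15.8% of them were higher in T cells other than naive-like than in naive-like cells. Of the 8 cytokine genes that passed this filter, 6 were, *IL10*, *IL17A*, *IL26*, *IFNG*, *TNF* and *CSF1*. All 6 passed the filter through the group in which they were high, which fixed their calls, and *IL2* and *IL4* did not pass. For the cytotoxic classes against all other T cells the background was 11.1% higher and 11.7% lower, with 5 of the 8 higher (*IL10*, *IFNG*, *TNF*, *TGFB1* and *CSF1*) and 3 lower (*LTA*, *IL17A* and *IL26*). The calls of *IL17A*, with 0 UMIs in the cytotoxic classes and a value that rests on the floor, and of *IL26*, with 1, were likewise fixed by the filter. For Th17-like cells it was 7.08%, with 4 of the 8 higher (*IL17A*, *IL26*, *TNF* and *CSF1*), of which *IL17A* and *IL26* passed the filter through the UMIs of these cells, so that their calls were fixed by it. For Eomes+ Tr1-like cells it was 7.58%, with *IL10* and *TNF* higher, and for Treg-like cells 4% higher and 7.23% lower, with none of the 8 higher and *IL10*, *IFNG* and *TNF* lower. With 2, 0 and 1 UMIs in Treg-like cells, these 3 passed the filter through the other T cells, which fixed their calls, and the value of *IFNG* rests on the floor.

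The surface tags gave a second view of the same cells. Thresholds of 145.9 UMIs for CD4 and 504 UMIs for CD8 divided the T cells into 6297 CD4hiCD8lo, 1894 CD4hiCD8hi, 411 CD4loCD8hi and 47 CD4loCD8lo cells. *IFNG* was higher in each of the first 3 than in the one before, going from 3.73 CPM (2.93 to 4.67 CPM) to 14.8 CPM (12.4 to 17.6 CPM) and 30.2 CPM (22.3 to 40.0 CPM). *CSF1* was highest where both tags were high, with 49.7 CPM (45.1 to 54.6 CPM) in CD4hiCD8hi cells, 14.1 CPM in CD4hiCD8lo and 19.5 CPM in CD4loCD8hi cells. That order depends on the thresholds, since with both set at the tag medians the log2 ratio of CD4loCD8hi to CD4hiCD8hi cells turned from -1.35 to 0.50. *IL17A* and *IL26* had 26 and 27 of their 30 UMIs each in CD4hiCD8hi cells and 0 in CD4loCD8hi cells, and their CD4hiCD8hi levels were 15.0-fold (5.21 to 59.2-fold) and 20.8-fold (6.40 to 107-fold) above CD4hiCD8lo cells. With thresholds at the medians these log2 ratios were 2.30 and 2.47, outside both intervals, and those of *IFNG* over CD4hiCD8lo cells moved from 1.99 to 2.89 in CD4hiCD8hi and from 3.02 to 3.95 in CD4loCD8hi cells.

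*IL10* was 3.05-fold (1.87 to 5.04-fold) and *TNF* 3.82-fold (2.29 to 6.47-fold) higher in CD4hiCD8hi than in CD4hiCD8lo cells. *LTA* had 10.1 CPM in CD4hiCD8lo and 5.03 CPM in CD4loCD8hi cells, a ratio of 0.496 (0.211 to 0.996). Its ratio of CD4hiCD8hi to CD4hiCD8lo cells showed no direction, at 0.849 (0.643 to 1.11) over all T cells, 0.672 (0.338 to 1.21) within naive-like cells and a log2 ratio of 0.15 with thresholds at the medians. *TGFB1* was at 135 CPM, 196 CPM and 221 CPM in CD4hiCD8lo, CD4hiCD8hi and CD4loCD8hi cells. *IL4* had 5 of its 6 UMIs in CD4hiCD8lo cells, which is too few for a direction.

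The compartments hold different classes, with 4543 of the 6297 CD4hiCD8lo cells naive-like and 229 of the 351 Th17-like cells CD4hiCD8hi. Of the 426 CD8 CTL-like cells, 195 were CD4hiCD8hi and 191 CD4loCD8hi, so this class is not CD4-low as a whole. Within CD4 CTL-like cells, the ratio of CD4hiCD8hi to CD4hiCD8lo cells was 1.21 (0.842 to 1.76) for *IFNG*, 1.01 (0.891 to 1.15) for *TGFB1* and 0.814 (0.388 to 1.67) for *IL10*, where the pooled ratios were 3.97, 1.46 and 3.05. *CSF1* was higher at 1.49-fold (1.18 to 1.88-fold) in CD4 CTL-like and 1.72-fold (1.18 to 2.57-fold) in Th17-like cells, and in Treg-like cells its ratio was 1.2 (0.642 to 2.13), which shows no direction. *TGFB1* in naive-like cells had a ratio of 1.03 (0.884 to 1.19).

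**Figure D4:**
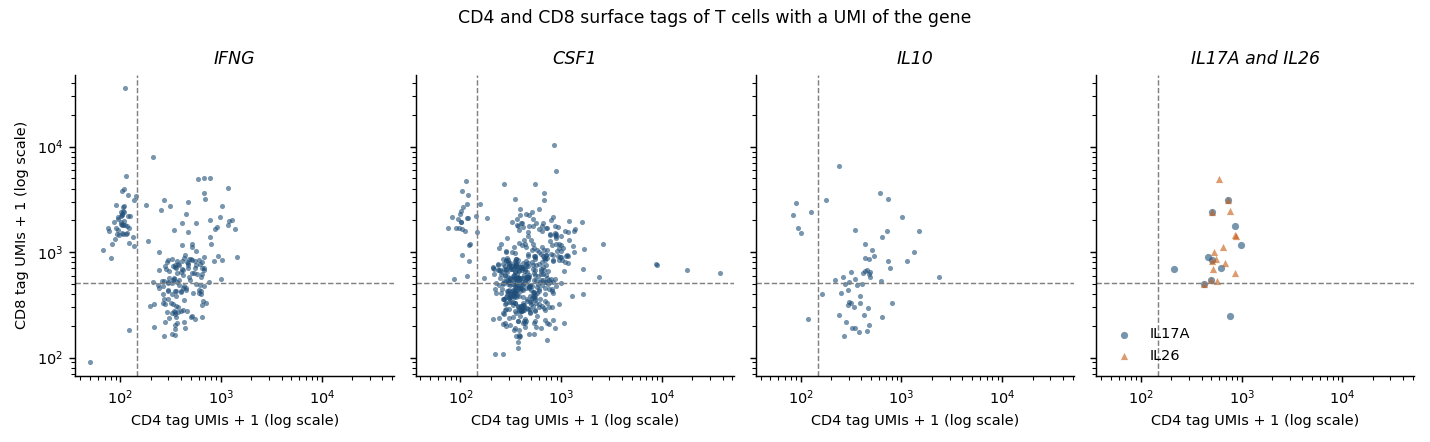
CD4 tag UMIs (x axis) against CD8 tag UMIs (y axis), both with 1 added and on log scales, for the T cells with a UMI of *IFNG*, *CSF1*, *IL10*, or *IL17A* and *IL26*; dashed lines are the thresholds of 145.9 and 504 UMIs. *IFNG* cells fell into a CD4-low group and a CD4-high group, while *IL17A* and *IL26* cells lay in the CD4-high side of the plane, most of them above the CD8 threshold.

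T cells with an *IFNG* UMI mostly held cytotoxic transcripts. Among the 204 of them with at least 2200 UMIs, after thinning, *GZMB* (granzyme B) was present in 93.1% (88.8 to 96.2%), against 16.2% of the T cells without *IFNG*. *NKG7*, a protein of cytotoxic granules, was present in 95.1% against 18.7% and *CCL5* in 80.4% against 12.7%. *CCR7*, the lymph node homing receptor of naive cells, was present in 6.37% against 54.1%, and *LTB* in 28.4% against 84.2%. Within the cytotoxic classes the differences were smaller. There, *GZMA* was in 29.1% (22.4 to 36.5%) against 17.9% (15.7 to 20.2%), *CXCR3*, a receptor of type 1 cells, in 15.7% (10.6 to 22.01%) against 8.75%, and *CD8A* in 51.2% against 48.9%.

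Genes were compared where the cells with *IFNG* held 10 or more UMIs of them, in 10% or more of these cells, a filter that favours genes high there. Of these genes, 10.2% were at least 2-fold higher than in the other T cells. Of the regulators fixed as a list, 7 of the 16 that passed were higher (*RUNX3*, *EOMES*, *BHLHE40*, *BATF*, *PRDM1*, *STAT4* and *TBX21*), and of the receptors 5 of 9 (*TGFBR3*, *TNFRSF1B*, *IL10RB*, *TNFRSF1A* and *IL2RB*). The 5 genes with the highest ratios were *GZMA* (log2 3.11), *GNLY* (2.95), *TTC39A* (2.75) and 2 known only by identifier, ENSMFAG00000000209 (2.93) and ENSMFAG00000000159 (2.85). Within CD4 CTL-like cells alone the background fell to 1.06%, and none of the 15 regulators or 9 receptors that passed was called.

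*IL10* cells were like *IFNG* cells in part. Among the 59 with enough UMIs, *GZMB* was in 78.0% (65.3 to 87.7%) and *NKG7* in 84.7%, against 17.8% and 20.2%. *EOMES*, the T-box factor that names the Tr1-like class, was in 15.3% (7.22 to 27.0%) against 2.30%, *GZMK* in 33.9% against 5.53%, and *PDCD1* (PD-1) in 32.2% against 5.39%. Of the 3835 genes that passed the same filter in *IL10* cells, 12.3% were higher, and 7 of the 15 regulators that passed were higher. The leading gene was *HMOX1*, which encodes the heme-degrading enzyme heme oxygenase 1, with 29 UMIs in the 61 *IL10* T cells and 135 in all others, 91.9 against 4.47 CPM (log2 4.36, 3.73 to 4.95). *EOMES* (log2 3.21), *LAG3* (3.03), an inhibitory receptor used to mark Tr1 cells, and *FAR2* (2.83) followed, with ENSMFAG00000000209 at 2.85. Within Eomes+ Tr1-like cells, *CTLA4* was in 7 of the 13 *IL10* cells (53.8%, 25.1 to 80.8%) against 6.81% (3.94 to 10.8%) of the others, at median depths of 5233.5 and 3387 UMIs before thinning. Within CD4 CTL-like cells the background was 2.09% and the highest ratios were lower (*AP1B1*, log2 1.81, and *KLF10*, 1.78).

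*CSF1* cells were mixed, as their classes were. *GZMB* was in 62.1% (57.5 to 66.5%) of the 464 cells with enough UMIs against 15.5%, *CCR6* in 5.82% against 1.21%, *FOXP3* in 5.60% against 3.25% and *CCR7* in 11.9% against 55.4%. Of the 4438 genes that passed the filter in *CSF1* cells, 5.93% were higher, with 6 of 15 regulators and 4 of 10 receptors higher. The leading genes were *PERP* (log2 3.01), *CXCR6* (2.79), a receptor of tissue-homing T cells, *FSCN1* (2.42), *FOSL2* (2.12) and *SMPDL3A* (2.11). Within CD4 CTL-like cells the background was 0.253%, and none of the 15 regulators or 9 receptors that passed was called. *CSF1* cells there had *GZMA* in 8.29% (4.91 to 12.9%) against 16.1% (13.3 to 19.2%) and *IL10RA* in 49.3% (42.2 to 56.3%) against 35.2% (31.5 to 39.1%). These 2 were picked from many markers, with no allowance for their number. There the leading named genes were *TRAV22* (log2 1.41) and *ZFAND5* (1.26), after ENSMFAG00000030274 (1.59).

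Within Th17-like cells the background for *CSF1* was 3.01%. The leading gene was *TRAV10*, a T cell receptor α variable segment, with 225.5 CPM in the 96 cells with *CSF1* and 31.5 CPM in the others (log2 2.84, 2.33 to 3.38), and *CXCR6* was second (2.55). Looked at after these values were seen, 15 of the 351 Th17-like cells had *TRAV10*, 10 of them with *CSF1* (66.7%, 38.4 to 88.2%), against 25.6% (21.0 to 30.6%) of the other 336. These 15 cells had *ZBTB16*, which encodes the transcription factor PLZF, in 6 cells (40.0%) against 8.63% and a median of 1306 CD8 tag UMIs against 690. Their *IL26* count was 0 and their *IL17A* UMIs, 3, lay in 1 cell.

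*TNF* cells were of several kinds. Of the 56 with enough UMIs, 28 (36.3 to 63.7% of them) had *GZMB* against 18.0% and 12.5% (5.18 to 24.1%) had *EOMES* against 2.32%. Of the 3744 genes that passed the filter in *TNF* cells, 8.81% were higher, and 5 of 17 regulators were higher, among them *EOMES*, *BHLHE40*, *STAT4* and *TBX21*. Among the leading genes were *TYMS* (log2 3.96), an enzyme of DNA synthesis, ENSMFAG00000045536 (3.04), *CKS2* (2.60) and ENSMFAG00000000159 (2.32). Cycling cells held 6 of the 75 *TNF* UMIs of T cells.

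*TGFB1* cells differed from the rest in the same direction as *IFNG* cells but by less. *GZMB* was in 31.4% (29.7 to 33.1%) against 9.96% and *CCR7* in 41.9% against 59.7%. Of the 3879 genes that passed the filter, 1.68% were higher, and *HOPX* (log2 1.76), *APOBEC3G* (1.71), *GZMB* (1.67) and *CX3CR1* (1.66) were among the leading genes. In *LTA* cells, *CCR7* was in 50.4% (44.2 to 56.5%) against 53.0%, *GZMB* in 9.02% (5.87 to 13.1%) against 18.5%, *CCR6* in 4.51% against 1.38% and *LTB* in 89.1% against 82.5%. For *LTA* the background was 0.0783%, or 3 of 3830 genes, *CTSL* (log2 1.2), *CR1* (1.19) and *LMNA* (1.12). No regulator of 12 and no receptor of 9 was called.

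**Figure D5:**
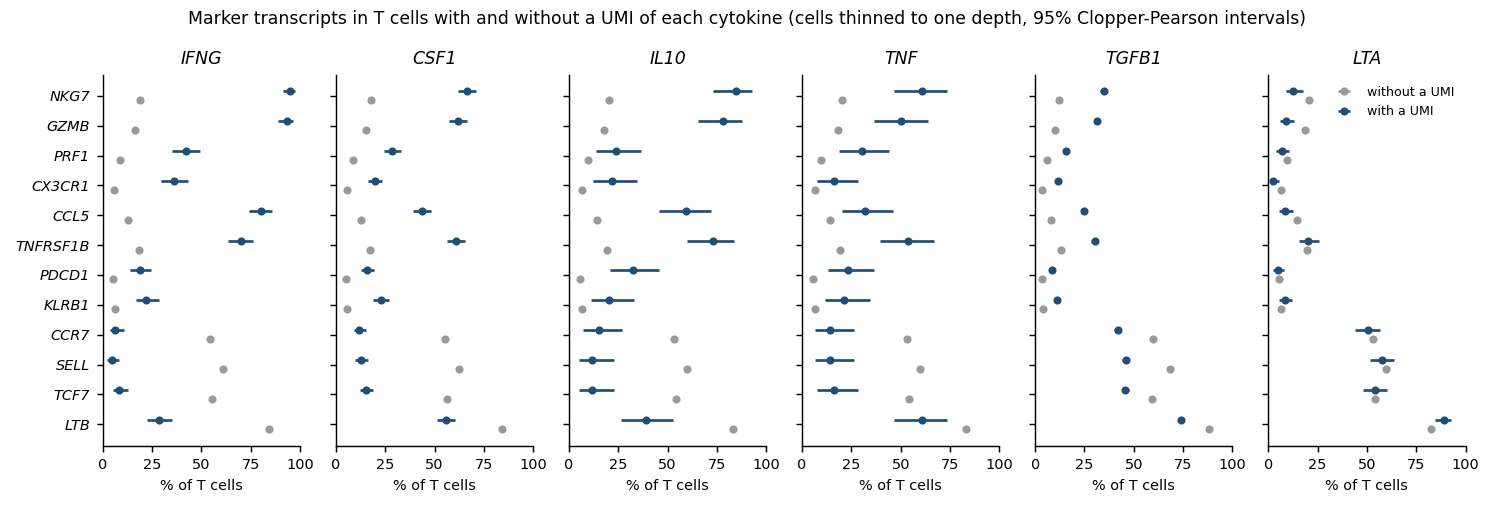
Percent of T cells (x axis) with a UMI of 12 marker transcripts (y axis) among cells with (blue) and without (grey) a UMI of each cytokine, after thinning to 2200 UMIs; bars are 95% Clopper-Pearson intervals. Cells with *IFNG* had *GZMB* in 93.1% and *CCR7* in 6.37%.

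*TGFB1*, present in 37.0% of all cells, shared cells with most other members. It had a UMI in 147 of the 217 *IFNG* cells (67.7%), 325 of the 487 *CSF1* cells (66.7%), 44 of the 62 *IL10* cells (71.0%) and all 16 *IL26* cells, which were also deeper than the rest. Among CD4 CTL-like cells, it was in 68.2% (58.6 to 76.7%) of cells with *IFNG* and 66.1% (62.7 to 69.5%) of those without. Pairs of the other members were less frequent. *IFNG* and *CSF1* shared 46 cells, 21.2% of the *IFNG* cells and 9.45% of the *CSF1* cells, while 5.52% of all cells had *CSF1*. Within CD4 CTL-like cells the intervals overlapped, with *CSF1* in 25.5% (17.6 to 34.6%) of cells with *IFNG* and 24.4% (21.4 to 27.6%) of those without. *IFNG* and *IL10* shared 8 cells, and within CD4 CTL-like cells *IL10* was in 4.55% (1.49 to 10.3%) and 3.15% (2.03 to 4.65%) of cells with and without *IFNG*. In Eomes+ Tr1-like cells, 1 of the 14 cells with *IL10* had *IFNG* (7.14%, 0.181 to 33.9%), against 3.19%. *IL10* shared no cell with *IL17A* or *IL26*, which were in only 0.125% and 0.181% of all cells, too few to read a separation from.

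The pathway lists put these transcripts beside their receptors and regulators. Of 19 receptor genes, 18 were in the table and 14 passed the filter. In T cells other than naive-like, 5 were higher and 2 lower, against 15.8% and 5.6% of all genes. *TNFRSF1B* (TNF receptor 2) had 696 CPM in CD4 CTL-like and 9.82 CPM in naive-like cells, and *TGFBR3*, the TGF-β co-receptor, 189 CPM and 0.189 CPM. *IFNGR2*, a chain of the IFN-γ receptor, ran the other way with 2.5 CPM in CD4 CTL-like and 106 CPM in naive-like cells, as did *IL17RA* with 5.63 CPM and 62.9 CPM. *IFNGR1*, the other chain, had 34.1 CPM and 37.4 CPM. *IL2RA* (CD25) was highest in Treg-like cells at 85.9 CPM, and *IL20RA*, which pairs with *IL10RB* to bind IL-26, had 0 UMIs.

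Of 26 regulators, 23 passed the filter, and 14 were higher and 0 lower in T cells other than naive-like, with a median log2 ratio of 1.32 against 0.14 for all genes, of which 15.8% were higher and 5.6% lower. *TBX21* (T-bet) had 85 CPM in CD4 CTL-like and 0.126 CPM in naive-like cells, *EOMES* 275 CPM in Eomes+ Tr1-like cells and *FOXP3* 286 CPM in Treg-like cells. In Treg-like cells against all other T cells, 3 of the 23 were higher (*IRF4*, *FOXP3* and *IKZF2*) and 9 lower, against 4% and 7.23% of all genes tested, but *FOXP3* and *IKZF2* are among the markers that named this class. The 5 genes for decay of cytokine RNA were all well detected and *ZC3H12A* (Regnase-1) alone was higher in T cells other than naive-like. *ZFP36* (tristetraprolin) had 1684 CPM in CD4 CTL-like and 829 CPM in naive-like cells. Of 12 early activation genes that passed, 2 were higher (*TNFRSF9* and *NFKBIA*) with a median log2 ratio of 0.07, so that this count, like that of the decay genes, is near the 15.8% of all genes. *FOS* was present in 96.7% of all cells and *TNFRSF9* (4-1BB) in 0.419%.

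Of 30 other cytokine genes, 26 were in the table, 6 had no UMI (*IL3*, *IL9*, *IL13*, *IL34*, *IL12A* and *CSF2*), 15 including these 6 were seen in under 20 cells and 8 in at least 1% of cells. The last were *LTB* (87.0%), *IL16* (42.5%), *CD40LG* (18.3%), *CCL5* (15.4%), *TNFSF10* (5.27%), *IL23A* (3.69%), *TNFSF14* (1.71%) and *FASLG* (1.66%). *CSF2*, the counterpart of *CSF1* that acts on granulocytes too, was thus at 0 where *CSF1* had 761 UMIs, and 0 of 8830 cells allows up to 0.0340% of cells with a captured UMI, which does not limit the share of cells that express the gene.

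Similarity of level over the 13 classes was measured for members with at least 100 UMIs, by Pearson's r of log2(CPM + 5), as a description over classes of 1 library that differ in depth. *IFNG* was most like *SLCO4C1* (0.953), *CMA1* (0.95) and *TBX21* (0.947), and 36 of 9171 genes were above 0.9. *TNF* was most like *GLA*, *RELT* and *KLF10* (each 0.95), *LTA* like *PNPLA2* (0.926), ENSMFAG00000040177 (0.923) and *RELL2* (0.901), and *TGFB1* like *AGFG2* (0.923), *RASGEF1A* (0.917) and *ID2* (0.915). *CSF1* had no gene above 0.9, with *CCNQ* at 0.898 and *IL10RB* and *PPP2R2B* at 0.789 and 0.788.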

How the data were processed

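Per the submitters' processing notes, Cell Ranger 3.1.0, STAR 2.5.1b and Seurat 3.1.3 were used. The files deposited by the authors hold unnormalized counts, that is the UMIs of each gene and each tag in each barcode. The filter their methods state (200 to 4000 genes, at most 20% mitochondrial UMIs from 13 genes) left 8830 of 8953 barcodes, more cells than the study analysed. Clustering used Seurat 5.3.0 in R 4.3.3 (log-normalization to 10000, 2000 variable genes without the 10 cytokine genes, 20 principal components, 20 neighbours, Louvain resolution 0.8, and 0.5 for clusters divided again). A name needed at least 3 markers of its list at 1.5 times the median over clusters, and the class names, rebuilt here, may differ from the study's.

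The members, gene lists and the class tied to each member were chosen with earlier results of these data known. CPM have exact Poisson intervals, shares Clopper-Pearson intervals, and ratios an interval from an exact binomial test on how UMIs divide between both groups. A group at 0 was set to 3 UMIs for a bound, with no ratio where that alone would turn the direction. Tag thresholds came from 2-component mixtures on log10(UMIs + 1). Scrublet in scanpy 1.11.5 called 0 cells, so it did not work here and no doublets were removed; the 6% of cells with the highest scores (530) were left out as an alternative. For marker shares by thinning, cells were taken for their cytokine UMI before thinning, and 754 cells under 2200 UMIs were left out. Named genes are the members, the fixed lists, the 5 genes of highest ratio in cells with a member UMI and the 3 of most similar pattern; comparisons within 1 class were added after seeing the data. Genes next to each other are from RefSeq (T2T-MFA8v1.1), and no coordinates are given because the counts used another build. The steps ran in Python 3.11.15 (scipy 1.17.1, scikit-learn 1.9.0, numpy 2.4.6) and were tested on simulated data. Of the listed symbols, 8 of 101 were not found in the table. A few genes that the rule would name are not reported here.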

Additional observations from a re-analysis of the deposited data

How the results depend on the processing

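Values here are log2 ratios unless given as percent. With 10 principal components, *IL17A* and *IL26* in T cells other than naive-like had 2.88 against the floor. *IL17A* in Th17-like cells had 6.29 (6.56 at resolution 1.2), and *TGFB1* in T cells other than naive-like had 0.74. As a mean over cells, the cytotoxic classes had 4.80 for *IFNG* and 2.87 for *CSF1*. Without the cells of highest doublet score, 35.9% of cells had *TGFB1*. The tag compartments depended most on a setting. With thresholds at the medians of the tags, CD4hiCD8hi over CD4hiCD8lo was 2.30 for *IL17A*, 2.47 for *IL26*, 2.89 for *IFNG*, 0.15 for *LTA* and 2.34 for *CSF1*, CD4loCD8hi over CD4hiCD8lo was 3.95 for *IFNG*, 0.88 for *TGFB1* and 2.84 for *CSF1*, and the order of *CSF1* between CD4loCD8hi and CD4hiCD8hi cells reversed, to 0.50. The cause was not tested. For the values recomputed, 17 each with 30 components, at resolution 0.4 and with the members kept for clustering, 28 with at most 10% mitochondrial UMIs and 10 with no filter, each stayed within its interval. The Th17-like class, 351 cells, ranged from 418 to 682 cells over the clusterings, and *IL26* there from 4.97 to 6.23. No value was had for *IL4* in Th2-like cells with 10 components, at resolution 1.2 or with the members kept, where no cluster took that name. The CD8 CTL-like class, 426 cells, had 213 cells with 10 components and was not named at resolution 0.4. Without thinning 7 of 18 shares left their intervals. With 3000 UMIs 3 of 10 did, *IFNG* (9.82%) and *CSF1* (17.3%) in the cytotoxic classes and *TGFB1* in Treg-like cells (22.8%). Depth limits *IL2* and *IL4* to statements on their floor, and B-like control cells number only 115. No paired analysis was possible because there is 1 animal.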
